A study of Mus musculus with 6 samples.

Results

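The genes described here are 9 genes of neurite growth and of the cytoskeleton of migrating neurons: Pak3, Map2, Gap43, Mapt, Dcx, Dclk1, Stmn2, Map1b and Tubb3. They were chosen by name from the 55416 genes of the deposited count table, each symbol matched 1 row, and all 9 passed the filter on low counts that left 23628 tested genes. RNA was sequenced from the ganglionic eminences, the ventral swellings of the embryonic forebrain that produce striatal neurons and cortical interneurons. The tissue came from mouse embryos at E13.5 (embryonic day), in 3 libraries from embryos without Dlx1 and Dlx2 and 3 from wild-type embryos. The former are labelled Dlx1/Dlx2 double knockout, and are called mutant below and double knockout in the plots. The labels name no other allele, agent, strain or sex, and do not say which Dlx1/Dlx2 allele was used or whether a library holds 1 embryo or several. P-values therefore measure the spread between these libraries, which may be partly technical.

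Neurites, the processes that become axons and dendrites, are built on microtubules and extended by actin-rich growth cones. Microtubules are polymers of tubulin, stabilised by microtubule-associated proteins and taken apart with the help of stathmins, and kinases downstream of small GTPases act on the actin network. Dlx1 and Dlx2 encode homeodomain transcription factors of the ventral forebrain, known in migrating interneurons for restraining the growth of axons and dendrites, and Pak3, Map2 and Gap43 have been named among the genes they restrain.

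Both targeted genes were low in all 3 libraries labelled double knockout. Dlx1 was at 439 CPM (reads scaled to library size, with TMM factors between libraries) in wild-type libraries and 81.6 CPM in mutants, and Dlx2 at 296 and 8.68 CPM. Total counts were 56618090 to 70114173 per library, and the 9 genes together took 0.987% to 1.16% of them. Of 23628 tested genes, 634 (2.68%) passed the edgeR quasi-likelihood test (Benjamini-Hochberg adjusted p under 0.05), 317 of them higher and 317 lower. With scaling by total count alone the split was 390 higher and 256 lower. Of 7 ventral forebrain markers, all of them measured in both groups, 2 were called higher in edgeR, 2 lower and 3 not. The progenitor genes Gsx2 (23.5 and 36.6 CPM) and Nkx2-1 (128 and 193 CPM) were higher in mutants, in 11 and 9 of 14 alternatives as well, and Lhx8 (56.4 and 24.1 CPM) and Ebf1 (131 and 44.6 CPM) were lower, in all 14. Mutant replicate 3 had the lowest summed level of 13 general neuron markers, 2065 CPM against 2298 and 2322 CPM in the other mutant libraries. It also had the highest summed level of 10 progenitor and cycling cell markers, 3931 CPM against 3318 and 3487 CPM.

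Among the 9 genes, Pak3 rose 2.03-fold in mutants and was the only one that passed the test in edgeR. Map2, Gap43 and Map1b were at 99.0%, 102% and 101% of their wild-type means, and none of these 3 passed the test. Dcx, Tubb3 and Stmn2 were at 77.5%, 79.3% and 81.9% of their wild-type means, and Dclk1 and Mapt at 87.1% and 87.3%. None of these 5 passed the test at an adjusted p under 0.05. The count of 1 gene in 9 higher stands beside 1.34% of all tested genes called higher, and the count of 0 lower beside 1.34% called lower. At an unadjusted p under 0.05 in the same edgeR test, Pak3 was higher and Dcx, Tubb3 and Stmn2 were lower. By that measure 13.3% of all tested genes differed, 6.52% higher and 6.81% lower, and among the 2474 genes that averaged at least 100 CPM, as all 9 genes do, 7.6% were higher and 13.8% lower. DESeq2 called those same 4 genes and limma-voom called Pak3, Dcx and Tubb3, beside 4.8% and 2.6% of all tested genes. Among the 2474 genes of at least 100 CPM, edgeR called 58 higher and 70 lower (5.17%). For those genes DESeq2 called 91 higher and 118 lower, and limma-voom 60 and 73. These shares and counts are the background for the gene lists as well.

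**Figure D1:**
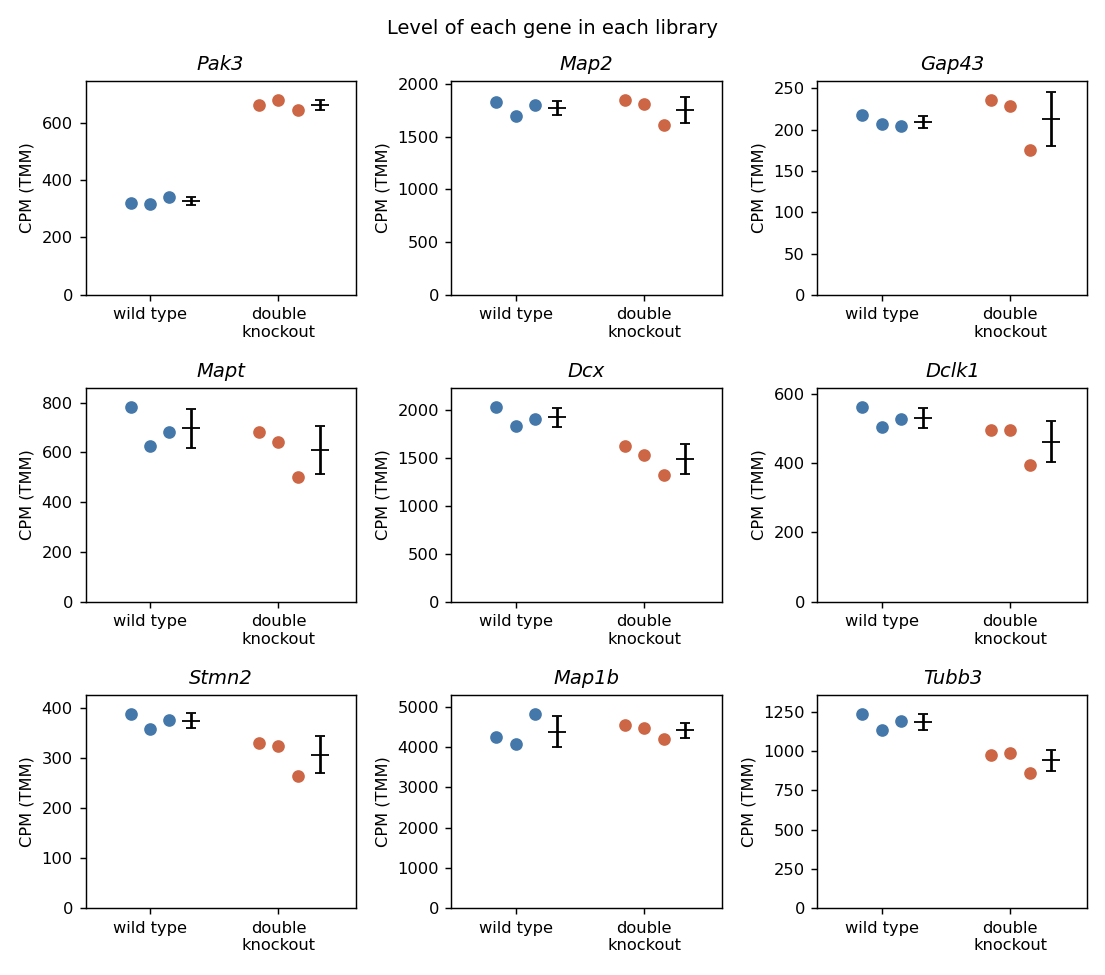
Level of each of the 9 genes in CPM (TMM scaling) in each library, with replicates 1 to 3 from left to right in each group, and the mean and SD (n = 3) beside them as a bar. Only for Pak3 do the mutant libraries lie above all wild-type libraries, at 644 to 678 against 316 to 341 CPM, and for Dcx, Dclk1, Stmn2 and Tubb3 they lie below.

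The actin side of neurite growth was represented by Pak3 (ENSMUSG00000031284), a p21-activated kinase that acts downstream of the small GTPases Rac and Cdc42. RefSeq lists 3 start sites for Pak3 on the plus strand of chromosome X, in the build GRCm38.p6, while the authors' reads were counted on GRCm39 per the submitters' processing notes. The windows from 250 bases before to 50 bases after each start are chrX:143518341-143518640, chrX:143665495-143665794 and chrX:143693037-143693336. They are shown because Pak3 is the gene that changed. Capitals mark the letters TAAT or their reverse complement ATTA, the core that homeodomain proteins such as the DLX factors are known to bind.

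Pak3 upstream start: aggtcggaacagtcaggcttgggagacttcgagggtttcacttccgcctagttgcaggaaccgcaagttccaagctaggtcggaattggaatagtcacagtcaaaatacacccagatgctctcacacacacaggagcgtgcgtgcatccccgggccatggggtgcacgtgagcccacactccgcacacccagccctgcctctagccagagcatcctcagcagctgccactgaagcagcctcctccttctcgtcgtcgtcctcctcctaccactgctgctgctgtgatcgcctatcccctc
Pak3 middle start: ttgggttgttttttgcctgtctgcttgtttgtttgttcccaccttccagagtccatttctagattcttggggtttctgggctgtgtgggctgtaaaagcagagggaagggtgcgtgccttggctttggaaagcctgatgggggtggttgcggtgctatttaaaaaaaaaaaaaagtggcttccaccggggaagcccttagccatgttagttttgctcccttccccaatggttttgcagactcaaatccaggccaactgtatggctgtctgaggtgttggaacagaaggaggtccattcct
Pak3 downstream start: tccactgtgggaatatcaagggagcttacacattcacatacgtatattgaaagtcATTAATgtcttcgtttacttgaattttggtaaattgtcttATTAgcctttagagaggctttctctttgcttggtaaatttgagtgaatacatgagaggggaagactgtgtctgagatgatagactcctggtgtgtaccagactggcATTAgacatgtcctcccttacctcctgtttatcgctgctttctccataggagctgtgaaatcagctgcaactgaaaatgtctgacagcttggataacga

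The upstream and the middle window hold 0 matches to TAAT on either strand. The downstream window holds 4, of which 2 overlap each other, and none of the 3 windows holds the longer palindrome TAATTA. Among all 32851 RefSeq windows of the same length, 58.0% hold TAAT and 5.29% hold TAATTA on either strand, and each TAATTA contains TAAT on both strands. Which start site the Pak3 reads came from cannot be read from counts per gene.

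Pak3 was at 320.1, 316 and 341 CPM for wild-type replicates 1 to 3, and at 661, 678 and 644 CPM for mutant replicates 1 to 3. The groups did not overlap and lay far apart compared with the spread in either of them. The means were 326 ± 13.7 CPM (SD, n = 3) and 661 ± 16.9 CPM (SD, n = 3). Its log2 fold change (log2FC, mutant over wild type) was 1.02 ± 0.0564 (SE), 95% confidence interval 0.89 to 1.15, and the Benjamini-Hochberg adjusted p was 4.57e-05 (edgeR, quasi-likelihood). By the size of its change Pak3 ranked 12 among the 2474 genes that averaged at least 100 CPM. It was called in all 14 alternative settings, with log2FC values from 0.999 to 1.06.

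Pak3 lies on the X chromosome, and the libraries differed in sex-linked expression. Xist, a noncoding RNA made from the inactive X, stood at 1234 to 1552 CPM by total count in wild-type replicates 2 and 3 and mutant replicate 1. It was below 1 CPM in the remaining 3 libraries, and 4 Y-linked genes summed to 206.5 to 214 CPM. Pak3 was at 316 and 341 CPM in wild-type libraries and 661 CPM in the mutant library among libraries with Xist. Among libraries with Y-linked expression it was at 320.1 CPM in the wild-type library and at 678 and 644 CPM in mutants. The difference was thus about as large within each set of libraries, and with Y-linked expression as a covariate the log2FC was 1.03 ± 0.0631 (SE).

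The mammalian p21-activated kinases fall into group I (Pak1, Pak2, Pak3) and group II (Pak4, Pak5, Pak6). Levels of different genes were compared as CPM per kilobase of annotated exon. In the wild type Pak3, at 34.1 ± 1.43 CPM per kilobase, lay between Pak1 at 38.3 ± 0.687 and Pak2 at 29.9 ± 0.78. In the mutant it was at 69.2 ± 1.76 CPM per kilobase (SD, n = 3 throughout), above Pak1 at 34.6 ± 1.09 and Pak2 at 31.2 ± 0.38. Pak3 made up 25.6%, 26.3% and 26.8% of the summed level per kilobase of the 6 kinase genes in wild-type replicates 1 to 3. In mutant replicates 1 to 3 it made up 42.4%, 43.2% and 42.8%. This share does not depend on the scaling between libraries, and the groups did not overlap.

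**Figure D2:**
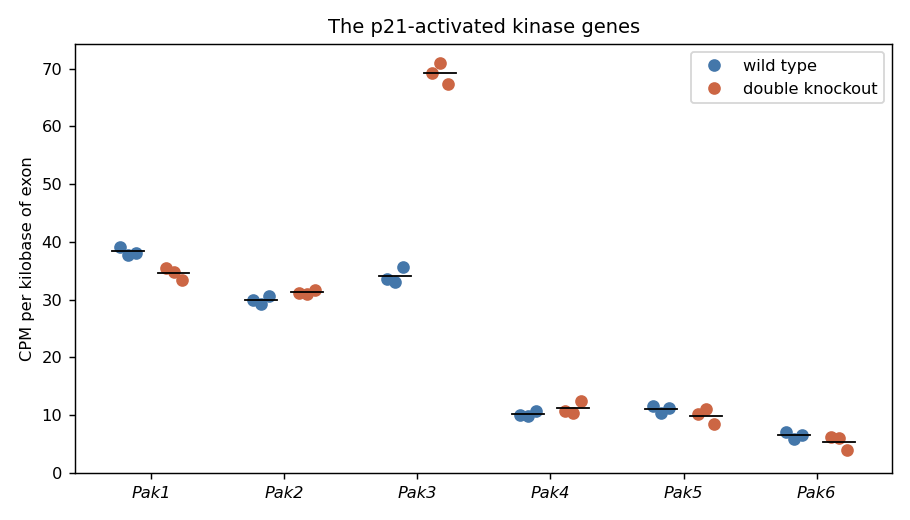
Level of the 6 p21-activated kinase genes in CPM per kilobase of exon, with a point for each library (replicates 1 to 3 from left to right) and a line at the mean of 3. Pak3 is at 34.1 in wild-type libraries and 69.2 in mutants, while Pak1 and Pak2 stay between 29.2 and 39.1 in all libraries.

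None of the other 5 kinase genes passed the test. Their log2FC values ran from -0.26 for Pak6 to 0.13 for Pak4. In the list of 21 kinase and GTPase regulator genes without Pak3, 0 passed the edgeR test, 5 had an unadjusted p under 0.05 (1 higher, 4 lower), DESeq2 called 1 and limma-voom 0. The gene called by DESeq2 was Arhgef6, which encodes an exchange factor for Rac and Cdc42 and is named here after its value was seen. It had 13.2 CPM in wild-type libraries and 17.9 CPM in mutants (adjusted p 0.0514, edgeR). Among the direct partners of the kinases, the GTPase genes Rac1 and Cdc42 had log2FC values of -0.029 and -0.049, and Limk1, a kinase that p21-activated kinases phosphorylate, of -0.12.

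Gap43 (ENSMUSG00000047261, chromosome 16) encodes a membrane protein of the growth cone. It was at 217, 207 and 204 CPM for wild-type replicates 1 to 3, and at 235, 229 and 176 CPM for mutant replicates 1 to 3. Mutant replicates 1 and 2 lay above all wild-type libraries and replicate 3 lay below them all. Its log2FC was 0.027 ± 0.101 (SE), with a 95% confidence interval of the fold from 0.868 to 1.20 and an edgeR adjusted p of 0.951. Without mutant replicate 3 the log2FC was 0.154 ± 0.0475 (SE) at an edgeR adjusted p of 0.168.

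Of the 19 other growth cone and collapsin response mediator genes, 0 passed the edgeR test. In the same test 5 had an unadjusted p under 0.05 (1 higher, 4 lower), DESeq2 called 2, both lower, and limma-voom 0. The median log2FC of the list was -0.12, beside -0.0016 over all tested genes and -0.017 for those of at least 100 CPM. Basp1 and Marcks, which encode growth cone proteins related to Gap43 in function, had log2FC values of -0.16 and 0.12. The summed level of the 19 genes was 12330 to 13180 CPM in wild-type libraries and 11200 to 12150 CPM in mutants, without overlap.

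Map2 (ENSMUSG00000015222, chromosome 1) encodes the microtubule-associated protein of dendrites. Its levels were 1825, 1691 and 1797 CPM for wild-type replicates 1 to 3, and 1842, 1809 and 1611 CPM for mutant replicates 1 to 3. The highest and the lowest value were both from mutants, so the wild-type range lay inside the mutant range. Its log2FC was -0.014 ± 0.0729 (SE) at an edgeR adjusted p of 0.965, and the 95% confidence interval of the fold ran from 0.883 to 1.11. In GENCODE M21 an exon of Map2 overlaps Gm10558 on the opposite strand, and the strand setting of the counting is not given in the sources used here.

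Map1b (ENSMUSG00000052727, chromosome 13), which encodes a microtubule-associated protein of growing axons, had the highest CPM of the 9 genes. It was at 4247, 4087 and 4817 CPM in wild-type libraries and 4537, 4484 and 4210.0 CPM in mutants. All 3 mutant values lay within the wild-type range. The log2FC was 0.0087 ± 0.082 (SE), the 95% confidence interval of the fold ran from 0.884 to 1.15, and edgeR gave an adjusted p of 0.983.

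Mapt (ENSMUSG00000018411, chromosome 11) encodes tau, the microtubule-associated protein of axons. It was at 781, 626 and 682 CPM in wild-type libraries and 683, 642 and 500.3 CPM in mutants. The ranges overlapped, with the lowest value in mutant replicate 3. Its log2FC was -0.20 ± 0.123 (SE), with a 95% confidence interval from -0.48 to 0.085 and an edgeR adjusted p of 0.584. Without mutant replicate 3 it was -0.066.

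**Figure D3:**
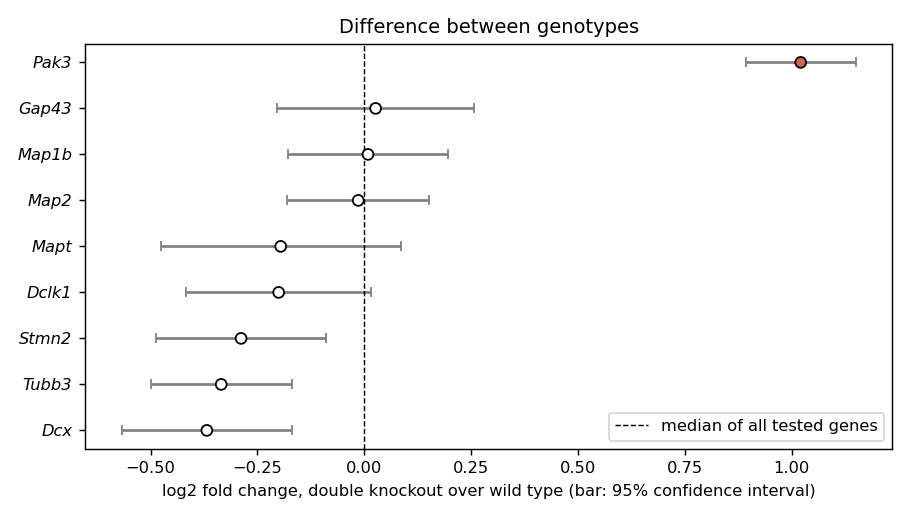
Log2 fold change of the 9 genes, mutant over wild type, with 95% confidence intervals from edgeR's quasi-likelihood fit on 3 libraries per group. The filled point, Pak3 at 1.02, passed an adjusted p under 0.05, open points did not, and the dashed line is the median of all tested genes at -0.0016.

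Of the 18 other microtubule-associated and plus-end genes, 1 passed the edgeR test. Clip2, which encodes a linker protein of growing microtubule ends, fell from 204 ± 6.63 to 167 ± 10.3 CPM (SD, n = 3). Its log2FC was -0.29 ± 0.0573 (SE), at an edgeR adjusted p of 0.0366, and it was called in 6 of the 14 alternatives. Gm42884 overlaps Clip2 on the opposite strand, so its counts are uncertain. Of the other 17 genes of the list, 0 passed in edgeR, and over the whole list 5 had an unadjusted p under 0.05 (1 higher, 4 lower), while DESeq2 and limma-voom each called 1, lower. Map1a, Map4 and Map6, which encode structural microtubule-associated proteins, had log2FC values of 0.16, 0.14 and 0.15, the highest of the list. None of them was called (adjusted p 0.456, 0.258 and 0.538, edgeR). Of the 18 values 12 were below 0, with a median of -0.057.

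Dcx and Dclk1 encode the doublecortin proteins, which bind and bundle microtubules in migrating neurons. Dcx (ENSMUSG00000031285) lies on the minus strand of chromosome X. RefSeq lists 2 overlapping start windows for it, which share 1 and the same TAATTA. The upstream window, chrX:143933170-143933469 in GRCm38.p6, is shown as a counterpart to the Pak3 windows, with TAAT and ATTA in capitals.

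Dcx upstream start: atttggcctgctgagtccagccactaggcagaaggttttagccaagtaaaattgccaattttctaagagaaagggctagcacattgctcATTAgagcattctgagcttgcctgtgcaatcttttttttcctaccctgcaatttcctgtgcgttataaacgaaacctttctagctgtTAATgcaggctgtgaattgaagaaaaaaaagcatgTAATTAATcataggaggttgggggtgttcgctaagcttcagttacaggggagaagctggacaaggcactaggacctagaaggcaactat

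This window holds 5 matches to TAAT on either strand, 3 of them in the run that contains TAATTA. Of the 6 genes with a window in the RefSeq table (Pak3, Map2, Dcx, Dclk1, Map1b and Tubb3, with 10 windows in all), Dcx was the only one with TAATTA. A match in a window is not a measured binding site.

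Dcx was at 2033, 1837 and 1914 CPM for wild-type replicates 1 to 3, and at 1627, 1534 and 1321 CPM for mutant replicates 1 to 3. All mutant values lay below all wild-type values. The log2FC was -0.37 ± 0.0874 (SE), 95% confidence interval -0.57 to -0.17, with an edgeR adjusted p of 0.0738. The adjusted p was 0.00156 in DESeq2, 0.0418 in limma-voom and 0.0115 in edgeR without a filter on low counts, so Dcx passed under these 3 of the 14 alternatives, over which it ranged from 0.00156 to 0.266. Among libraries with Xist, Dcx was at 1837 and 1914 CPM in wild-type libraries and 1627 CPM in the mutant library. Among libraries with Y-linked expression it was at 2033 CPM in the wild-type library and at 1534 and 1321 CPM in mutants.

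Dclk1 (ENSMUSG00000027797, chromosome 3) was at 561, 503 and 527 CPM in wild-type libraries and 496, 496 and 393 CPM in mutants. The groups did not overlap, but the highest mutant value lay close to the lowest wild-type value. The log2FC was -0.20 ± 0.0948 (SE), 95% confidence interval -0.42 to 0.016, with an edgeR adjusted p of 0.421. Without mutant replicate 3 it was -0.091, and Gm21954 and Gm42609 overlap its exons on the opposite strand in GENCODE M21. In the doublecortin family as a whole (Dcx, Dclk1, Dclk2 and Dclk3), Dcx made up 69.6% to 70% of the summed level per kilobase in wild-type libraries and 66.6% to 68% in mutants.

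Stmn2 (ENSMUSG00000027500, chromosome 3) encodes a stathmin of growth cones, a protein that promotes the disassembly of microtubules. It was at 387, 358 and 376 CPM in wild-type libraries and 331, 324 and 264 CPM in mutants. The groups did not overlap, and mutant replicate 3 was again the lowest. The log2FC was -0.29 ± 0.087 (SE), 95% confidence interval -0.49 to -0.090, with an edgeR adjusted p of 0.166. DESeq2 gave an adjusted p of 0.0468, and over the 14 alternatives it ranged up to 0.443. Without mutant replicate 3 the log2FC was -0.186, smaller by over 1.5 times.

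Of the 6 other stathmin and doublecortin genes, 5 had a log2FC below 0. Of the 6, 0 passed the edgeR test, 5 had an unadjusted p under 0.05, all lower (6.81% over all tested genes), DESeq2 called 2, both lower, and limma-voom 0. Stmn1, which encodes the founding member of the stathmin family, averaged 631 CPM in wild-type libraries and 501 CPM in mutants (adjusted p 0.0868, edgeR). Stmn3 and Stmn4 had log2FC values of -0.18 and -0.27. Stmn2 made up 10.3% to 12.2% of the summed level per kilobase of Stmn1 to Stmn4 in wild-type libraries and 10.6% to 11.8% in mutants, with overlap.

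Tubb3 (ENSMUSG00000062380, chromosome 8) encodes the beta-tubulin of neurons. It was at 1234, 1130.0 and 1190.0 CPM in wild-type libraries and at 973, 985 and 860.0 CPM in mutants. All mutant values lay below all wild-type values. The log2FC was -0.33 ± 0.0722 (SE), 95% confidence interval -0.50 to -0.17, with an edgeR adjusted p of 0.0521. It was 7.28e-04 in DESeq2, 0.025 in limma-voom and 0.00963 in edgeR without a filter, and over the 14 alternatives it ranged from 7.28e-04 to 0.21. Tubulin genes are alike in sequence, so reads may have been shared or dropped between them, depending on a counting setting that is not given in the sources used here.

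Tubb3 made up 20.1% to 21.3% of the summed level per kilobase of 7 beta-tubulin genes in wild-type libraries and 18.4% to 19.1% in mutants, without overlap. Of the 11 other tubulin genes, 0 passed the edgeR test, 4 had an unadjusted p under 0.05, all lower, and DESeq2 and limma-voom called 0. Their median log2FC was -0.13. Tubb2b and Tuba1a, tubulins of young neurons, had log2FC values of -0.19 and -0.14, and 10 of the 11 values were below 0.

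Non-overlap between the groups was found for 5 of the 9 genes, Pak3 upward and Dcx, Dclk1, Stmn2 and Tubb3 downward. Over all tested genes the groups did not overlap upward for 9.3% and downward for 10.2%. Among the 2474 genes of at least 100 CPM these shares were 9.54% and 18.4%. The median log2FC of the 9 genes was -0.20, beside -0.017 for the genes of at least 100 CPM.

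In the wild type the order of levels per kilobase was Tubb3 (634 ± 27.9), Map1b (277 ± 24.2), Dcx (152 ± 7.79), Gap43 (137 ± 4.57), Map2 (108 ± 4.29), Mapt (92.5 ± 10.4), Stmn2 (66.8 ± 2.61), Dclk1 (34.7 ± 1.9) and Pak3 (34.1 ± 1.43). The ranges of Map2 and Mapt overlapped, as did those of Dclk1 and Pak3, and other neighbours in this order were apart in all 3 libraries. In the mutant Pak3, at 69.2 ± 1.76, stood above Stmn2 at 54.7 ± 6.54 and Dclk1 at 30.2 ± 3.87 in all 3 libraries, and its range lay inside that of Mapt, at 66.4 to 90.7. There the ranges of Gap43 and Dcx also overlapped, at 115 to 154 and 104 to 129, as did those of Dcx and Map2, at 97.9 to 112 for the latter.

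The summed level of 13 general neuron markers was 2564 to 2794 CPM in wild-type libraries and 2065 to 2322 CPM in mutants, without overlap, and all 13 log2FC values were below 0. Of these, 2 passed the edgeR test, 8 had an unadjusted p under 0.05, all lower, and DESeq2 and limma-voom each called 3, lower. Elavl3, which encodes a neuronal RNA-binding protein, averaged 580 CPM in wild-type libraries and 484 CPM in mutants (adjusted p 0.037, edgeR). The synaptic gene Snap25 averaged 61.6 and 48.0 CPM (adjusted p 0.0416, edgeR). Both were lower, and they were called in 7 and 6 of the 14 alternatives. The sum of 10 progenitor and cycling cell markers was 2889 to 3262 CPM in wild-type libraries and 3318 to 3931 CPM in mutants, without overlap. None of these 10 passed in edgeR, 4 had an unadjusted p under 0.05, all higher (6.52% over all tested genes), DESeq2 called 1 and limma-voom 0. In bulk tissue, fewer cells of a type and less RNA per cell cannot be told apart, and the part of cell composition in the differences of the 9 genes was not tested.

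Each gene was also set against the neuron markers as reads per read of the 13 markers together in the same library, a ratio that does not depend on scaling between libraries and was chosen after the values were seen. For Pak3 the ratio was 0.115, 0.123 and 0.128 for wild-type replicates 1 to 3, and 0.285, 0.295 and 0.312 for mutant replicates 1 to 3, 2.44-fold higher on average. For Map2 it was 0.653, 0.66 and 0.675 against 0.793, 0.787 and 0.78, 1.19-fold higher, with the 3 mutant libraries close together. The Map1b and Gap43 ratios were 1.21-fold and 1.22-fold higher, also without overlap. In CPM, which does depend on scaling, Map2, Map1b and Gap43 were at 99.0%, 101% and 102% of their wild-type means. Whether the level of these genes per neuron differed was not tested. On the CPM scale the genes hardly differed and the marker sum was lower in mutants. The largest parts of that sum were Nsg2, at 793 CPM in wild-type libraries and 603 CPM in mutants, and Elavl3, at 580 and 484 CPM.

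The ratios of Dcx and Tubb3 were 0.928 and 0.951 of the wild-type mean, again without overlap. The groups overlapped for Stmn2 at 0.98, Dclk1 at 1.04 and Mapt at 1.05. The 6 ratios without overlap each had a two-sided p of 0.1 in an exact permutation test, the smallest that 3 libraries against 3 can give, so none can pass a threshold of 0.05.

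**Figure D4:**
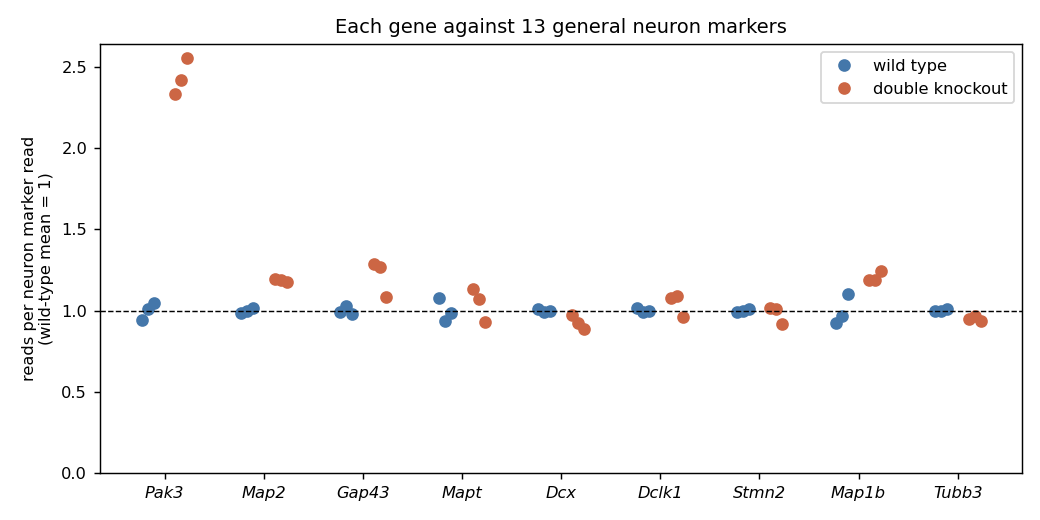
Reads of each of the 9 genes per read of 13 general neuron markers in the same library, divided by the wild-type mean of that gene, with replicates 1 to 3 from left to right. The mutant libraries lie above the wild type for Pak3, Map2, Gap43 and Map1b (2.44, 1.19, 1.22 and 1.21 on average), below it for Dcx and Tubb3, and overlap it for the other 3 genes. The marker sum itself was lower in mutants.

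Markers of single neuron classes were measured in the same libraries. All 6 GABAergic neuron markers fell, 4 of them in all 14 alternatives as well and the other two in fewer. The log2FC was -2.85 ± 0.113 (SE) for the vesicular transporter gene Slc32a1 and -1.47 and -1.38 for Gad1 and Gad2, the genes of the enzymes that make GABA. Of 9 cortical excitatory markers, 1 passed the edgeR test, the transcription factor gene Neurod2, which fell with a log2FC of -0.53 ± 0.0526 (SE). Of the 9, 8 were lower at an unadjusted p under 0.05 in edgeR, the groups did not overlap for 7, all lower, and DESeq2 called 4 and limma-voom 1, lower. The sum of the 9 was 1015 to 1028 CPM in wild-type libraries and 786 to 823 CPM in mutants. For the 6 GABAergic markers it was 1055 to 1086 CPM and 454 to 539 CPM. Cortical excitatory markers were thus well expressed in tissue labelled as ganglionic eminence. Whether the dissected tissue held cortex, and its part in the differences of the 9 genes, was not tested. The sum of 13 blood, vessel, microglia and meninges markers overlapped, at 157 to 173 and 156 to 194 CPM. Of these 13 none passed in edgeR, and 0 had an unadjusted p under 0.05 or were called by DESeq2 or limma-voom.

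Across the 7 lists of other cytoskeletal genes, 95 of 96 genes could be tested, and 2 (2.11%) passed in edgeR, both lower. This stands beside 2.68% of all tested genes and 5.17% of the 2474 genes of at least 100 CPM. Besides Clip2 this was Srgap2, which encodes a membrane-shaping regulator of Rac in migrating neurons, at 154 ± 9.78 and 126 ± 2.14 CPM (SD, n = 3). Its log2FC was -0.29 ± 0.0552 (SE), at an edgeR adjusted p of 0.0323, and it was called in 8 of the 14 alternatives. Neither gene was called with scaling by total count, at adjusted p of 0.0908 for Clip2 and 0.0519 for Srgap2. At an unadjusted p under 0.05 in edgeR there were 4 higher and 24 lower (28 of 95, beside 13.3% of all tested genes). Among the genes of at least 100 CPM, a level that most of the 95 reach, 7.6% were higher and 13.8% lower. Of the 95 log2FC values 69 were below 0, beside 11926 of 23628 overall and 1460 of 2474 at that level. Leaving out wild-type replicate 1 or 3 or mutant replicate 1 or 2 gave 0 calls, with 15 to 22 genes at an unadjusted p under 0.05 in edgeR. Without wild-type replicate 2 there was 1 call, lower, and without mutant replicate 3 there were 2 higher and 2 lower. Total count scaling gave 1 call higher and 0 lower.

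The migration list held 16 genes, of which Srgap2 was the 1 called. Pafah1b1, the gene of the dynein regulator LIS1, had a log2FC of -0.072, and Cdk5r1, which encodes an activator of the kinase CDK5, of -0.29 with an edgeR adjusted p of 0.0654. Of 5 neurofilament genes, 4 were tested and 0 passed in edgeR, with 0 at an unadjusted p under 0.05 and 0 called by DESeq2 or limma-voom. Ina was at 524 and 511 CPM, and Prph, at 2 to 12 reads per library, was below the filter.

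**Figure D5:**
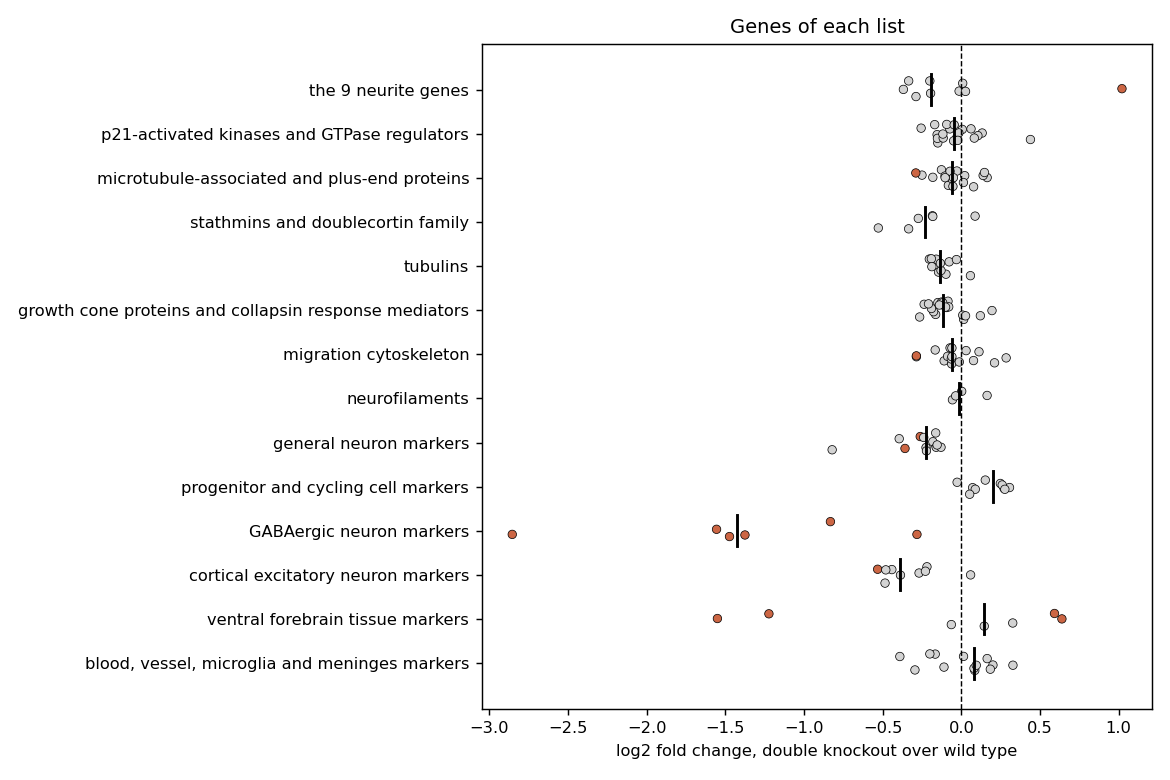
Log2 fold change, mutant over wild type, of the 9 genes, the 7 lists of other cytoskeletal genes and 6 lists of cell type or tissue markers. Each point is a gene, filled where it passed an adjusted p under 0.05 in edgeR, and each bar is the median of a list, for example -0.20 for the 9 genes and -1.42 for the GABAergic markers.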

How the data were processed

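The authors deposited raw read counts per gene, 1 column for each of 6 libraries (3 wild type, 3 double knockout), made with featureCounts on GRCm39 per the submitters' processing notes. Libraries were stranded total RNA depleted of ribosomal RNA, per the labels' protocols. The aligner, annotation release, strand and multi-mapping settings are not given in the sources used here. Of 55416 rows, 1492 had no symbol and were kept as genes by identifier.

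Sample titles gave the groups. The filter on low counts was filterByExpr (minimum count 10, minimum total 15), and tests ran in edgeR 4.0.16 under R 4.3.3: TMM scaling (trimmed mean of M values), quasi-likelihood test, prior count 0.125, Benjamini-Hochberg adjustment over all 23628 tested genes, called at an adjusted p under 0.05. SE is the log2 fold change divided by the square root of F, and intervals use the fit's residual and prior degrees of freedom. The biological coefficient of variation was 13.4%. The script was tested on simulated data. Total counts of 56618090 to 70114173 put every one of the 9 genes at 12194 reads or more in each library, so replicate spread, not counting error, limits precision. Exon lengths, overlaps and chromosomes came from GENCODE M21 (GRCm38), and promoter windows from RefSeq (GRCm38.p6), matched by symbol.

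The 14 alternatives were edgeR with DESeq2 size factors or total counts for scaling, with no filter, with genes under 1 CPM on average removed or with a replicate block, DESeq2 1.42.0 and limma-voom (limma 3.58.1) as other tests, a covariate of 4 Y-linked genes (Ddx3y, Eif2s3y, Kdm5d, Uty), and leaving out each of the 6 libraries. Named genes were the 9 genes, Dlx1 and Dlx2, up to 4 called genes per list averaging at least 1 CPM and the largest changes, and the 3 genes averaging at least 10 CPM most like Pak3, Map2 and Gap43 in pattern. Other genes of the lists were named for their role, with their values known. The 9 genes, the lists and the alternatives were chosen with earlier results of these data known. Values of some list genes are not reported here.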

Additional observations from a re-analysis of the deposited data

How the results depend on the processing

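Pak3 kept its direction and its call under all 14 alternatives. The number of the 9 genes called was 1 in all settings except DESeq2 (4), limma-voom (3) and edgeR without a filter (3), and 1 in each fit without a library. Over all tested genes, DESeq2 called 1134, the Y-linked covariate left 358, and fits without a library gave 309 (without wild-type replicate 1) to 749. For the other cytoskeletal genes, total count scaling called 1 (higher), DESeq2 8 (1 higher, 7 lower), edgeR without a filter 5 (1 higher, 4 lower) and the edgeR fit with the Y-linked covariate 0 (17 at an unadjusted p under 0.05), and fits without a library gave 0 to 4. The 2 settings that moved Map2, Gap43 or Map1b across 0 were total count scaling (Map2 0.0158) and leaving out libraries, with ranges of -0.0509 to 0.0502 for Map2, -0.0505 to 0.154 for Gap43 and -0.0395 to 0.0843 for Map1b. The cause was not tested. The other 5 genes kept their direction throughout. With the replicate block 690 genes were called (634 without), 1 of the 9 genes (Pak3, log2 fold change 1.02) and 3 other cytoskeletal genes (1 higher, 2 lower). With genes under 1 CPM on average removed, the 2 other cytoskeletal genes called were 1 higher and 1 lower. Deviations of same-numbered libraries correlated at -0.0949, -0.00401 and -0.00699, and those of other pairs at -0.106 to 0.115. Values this small cannot show whether the numbers pair the libraries, and the labels do not tie the numbers to litters.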

Other observations

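The neighbours of Pak3 and Dcx on chromosome X were looked up after the values had been seen. In the order of protein-coding genes in GENCODE M21, a single gene, Capn6, lies between Pak3 and Dcx. Capn6 was at 4.57 ± 1.76 CPM in wild-type libraries and 7.82 ± 1.4 CPM in mutants, with an edgeR adjusted p of 0.211. On the other side of Pak3, Chrdl1 had a log2 fold change of 0.37 and an adjusted p of 0.645 in edgeR. Beyond Chrdl1, Rtl9 (0.55, edgeR adjusted p 0.208), Ammecr1 (0.38, 0.075) and Tmem164 (0.14, 0.24) were higher without overlap, as were 9.3% of all tested genes. Beyond Dcx, Alg13 had a log2 fold change of -0.06 (edgeR adjusted p 0.865), Trpc5 -0.066 (0.919) and A730046J19Rik, at 0.331 CPM in wild-type libraries, -0.99 (0.515). Pak3 was the only one of the 10 tested genes of this stretch that passed. Pak3 reads per Dcx read were 0.157, 0.172 and 0.178 for wild-type replicates 1 to 3, and 0.407, 0.442 and 0.488 for mutant replicates 1 to 3, so the ratio of these close neighbours was higher in every mutant library.

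Among 10484 other genes averaging at least 10 CPM, the 3 whose levels over the 6 libraries were most like those of Pak3 were Chrna4, Sox3 and Nuak2. Each of these 3 was called higher in edgeR. Chrna4, which encodes a nicotinic acetylcholine receptor subunit, was at 25.1 ± 0.869 and 49.0 ± 2.39 CPM. The progenitor transcription factor gene Sox3 was at 33.3 ± 0.802 and 48.2 ± 1.35 CPM, and the kinase gene Nuak2 at 23.6 ± 1.22 and 41.5 ± 1.03 CPM. Likeness was ranked by correlation of log2 CPM over the 6 libraries, which for Pak3 mostly reflects the group difference, and 363 genes had r over 0.9 with Pak3. The genes most like Map2 were Grin2b, Atp8a2 and Kcnd2, and those most like Gap43 were Csmd3, Tmem132b and Pnmal2. None of these 6 was called in edgeR, and their log2 fold changes ran from -0.029 for Grin2b to 0.051 for Csmd3. Their likeness thus lies mostly in the spread within the groups, and r was over 0.9 for 221 genes with Map2 and 123 with Gap43.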
